A study of Mus musculus with 10 samples.

Results

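Mouse cells of the cultured line ER-Hoxa9-Lys-GFP were compared after 72 h and after 40 h without estradiol (E2). The comparison used 4 of the 10 RNA-seq libraries of the study, replicates 1 and 2 of the 72 h group and replicates 1 and 2 of the 40 h group, chosen by their titles. E2 was then given back for 48 h in the 72 h group and for 80 h in the 40 h group, so the periods without and with E2 add up to 120 h in both, and the length of withdrawal and the time with E2 restored cannot be told apart. The other 6 libraries, 2 per group, came from cells without E2 for 24 h and then with it for 96 h, from cells without E2 for 120 h and never given it back, and from untreated cells that kept E2. All cells were of the C57BL/6 strain, and their RPMI medium held serum and SCF-conditioned medium (SCF is stem cell factor). Withdrawal meant washes in PBS and a change to medium that lacked E2. The title of the series speaks of irreversible commitment to myeloid differentiation, and the comparison asks how the RNA of cells returned to E2 late differed from that of cells returned to it earlier. Nothing in the labels says that the 2 libraries of a group are separate cultures, and the p-values therefore reflect just the spread between libraries, which may be technical. Whether the line is 1 clone, and what drives the fusion gene, is not given in the sources used here.

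As background, Hoxa9 is a homeobox transcription factor of blood stem and progenitor cells that, with its cofactor Meis1, keeps myeloid progenitors dividing and undifferentiated. Joined to an estrogen receptor's hormone-binding domain, the protein needs E2 to act, so removing E2 lets such progenitors mature. Neutrophils fill their granules in a fixed order. Primary granule proteins such as myeloperoxidase and elastase are made by promyelocytes, secondary granule proteins such as lactoferrin by the later myelocytes, and calprotectin, chemokine receptors and gelatinase later still. Monocytes arise from a shared precursor and carry the receptor for macrophage colony-stimulating factor.

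Levels were RPKM, read counts scaled to the length of the transcript and the size of the library, and the test took in the 13004 genes that reached 1 RPKM in 2 or more libraries. The denominators behind the RPKM were 191410000 and 183680000 reads in the 72 h libraries, against 175620000 and 183590000 reads in the 40 h libraries. The median absolute log2 difference between replicates was 0.119 in the 72 h group, 0.0915 in the 40 h group and 0.248 in the 120 h group, which was the least alike pair and enters the spread shared by all tests. Of the RPKM summed over the protein-coding genes tested, mitochondrially encoded genes held 2.59 and 3.06% in the 72 h libraries. They held 2.11 and 1.87% in the 40 h libraries, and the part of this difference in the results was not tested.

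The 72 h cells carried more RNA of most listed neutrophil and monocyte effector genes, and less of most listed lymphoid and ERK feedback genes, than the 40 h cells. With limma and p-values adjusted by Benjamini and Hochberg (BH, threshold 0.05), 1810 genes (13.9% of those tested) were higher in the 72 h cells and 1796 genes (13.8%) were lower. Of these, 353 (2.71%) were higher and 378 (2.91%) lower by at least 2-fold. The median log2 change over all genes was 0.02. The counts depended on the libraries that set the spread. They were 915 higher and 1111 lower without 72 h replicate 2. Leaving out 40 h replicate 1 gave 881 and 1097, and leaving out 40 h replicate 2 gave 1049 and 1025. Leaving out 120 h replicate 1 gave 3009 and 3067, and leaving out 120 h replicate 2 gave 3011 and 3072. Set against the untreated cells, 43.9% of genes were called in the 72 h cells and 4.29% in the 40 h cells, and the untreated libraries are shared by both of those tests.

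Among the called genes of at least moderate level, Chil3, which encodes a chitinase-like protein secreted by maturing neutrophils and macrophages, had the highest log2 change. It had 349 and 462 RPKM in the 72 h libraries, against 3.22 and 2.24 RPKM in the 40 h libraries. The log2 change was 6.77 (SE 0.26, limma, BH adjusted p = 2.06e-06), and the ratio of mean RPKM was 149. S100a9, one chain of the calprotectin pair, had 99.2 and 191 RPKM at 72 h, against 1.44 and 1.68 RPKM at 40 h, a log2 change of 5.76 (SE 0.28, adjusted p = 4.99e-06). Its partner S100a8 had 99.3 and 173 RPKM at 72 h, against 1.47 and 1.49 RPKM at 40 h. In all 3 genes both 72 h libraries lay far above both 40 h libraries, and replicate 2 was the higher of the 72 h pair. The other 7 of the 10 highest were Lyz1, a lysozyme, with a log2 change of 5.09, the resistin-like secreted protein Retnlg at 4.74, the protease inhibitor Stfa1 at 4.59, the granule proteins Ngp at 4.41 and Ltf (lactoferrin) at 4.28, the macrophage glycoprotein Gpnmb at 4.38, and the monocyte surface antigen Ly6c2 at 4.19. The granule genes were below their 120 h level. Ltf had 16.6 and 33.9 RPKM at 72 h, against 0.253 and 0.304 RPKM at 40 h, and 2188 and 2405 RPKM at 120 h. Ly6c2 was different, with 568 and 608 RPKM at 72 h, against 37.6 and 25.8 RPKM at 40 h, and 638 and 430 RPKM at 120 h.

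Aebp1, which encodes a secreted carboxypeptidase-like protein, had the lowest log2 change. It had 0.345 and 0.281 RPKM in the 72 h libraries, against 29.5 and 39.3 RPKM in the 40 h libraries, and it fell by 4.74 on the log2 scale (SE 0.12, limma, adjusted p = 7.56e-07). Igll1, which encodes a part of the surrogate light chain of B cell precursors, had 4.47 and 3.34 RPKM at 72 h, against 124 and 110 RPKM at 40 h (log2 change -4.60, SE 0.14, adjusted p = 7.56e-07). Gas6, a ligand of the TAM receptor kinases, had 0.355 and 0.506 RPKM at 72 h, against 25.6 and 32.5 RPKM at 40 h. Both 72 h libraries were far below both 40 h libraries in each. The rest of the 10 lowest were the membrane protease Mmp14 (-4.25), the calmodulin-binding protein Nrgn (-4.03), the B cell surface protein Cd72 (-3.71), Ctla2a (-3.51), Depp1 (-3.38), Tmem132a (-3.37) and Slc45a3 (-3.34). Whether reads were counted by strand is not given in the sources used here, so overlapping and antisense genes are uncertain, and near-identical families (Stfa1, Stfa2, Stfa3, Stfa2l1 and BC100530, Ly6c1 and Ly6c2, Lyz1 and Lyz2, Ear1 and Ear2, the Bcl2a1 genes) are uncertain as single genes.

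**Figure D1:**
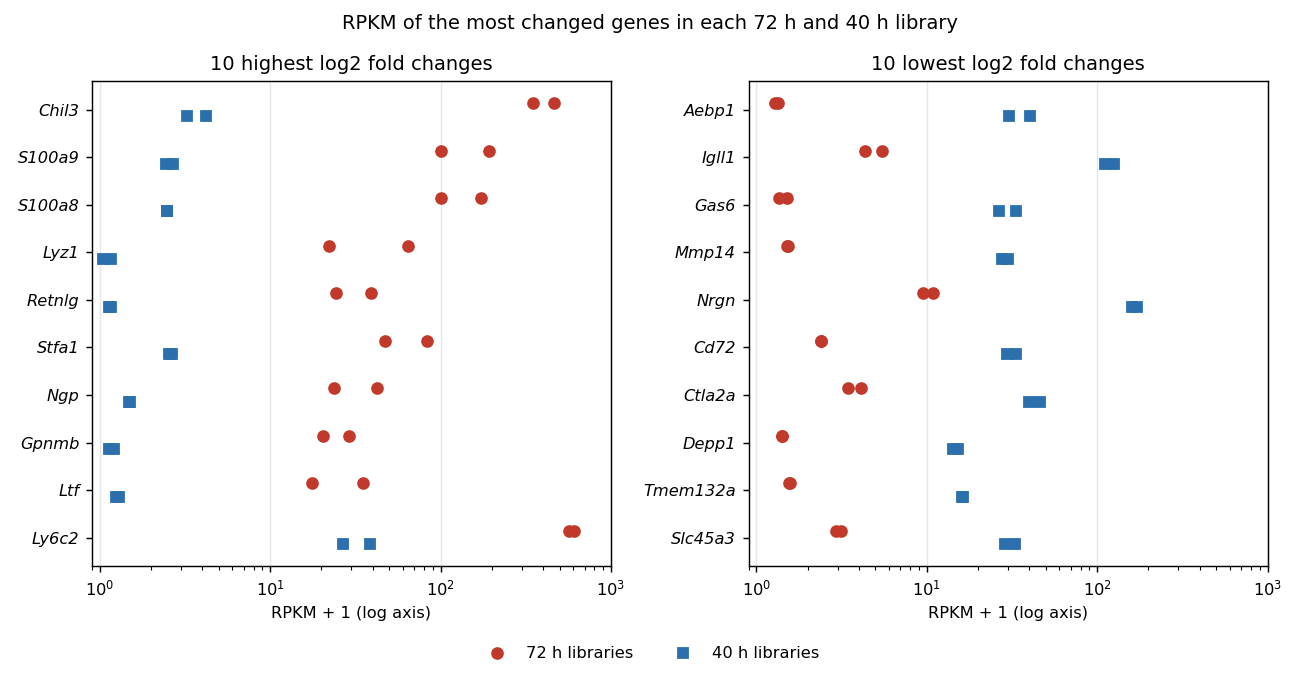
Level (RPKM + 1, log axis) of the 10 genes with the highest and the 10 with the lowest log2 change, 1 point per library, with 72 h libraries as red circles drawn above 40 h libraries as blue squares. The red and blue points are apart for every gene, by a log2 change of 4.19 (Ly6c2) to 6.77 (Chil3) on the higher side and -3.34 (Slc45a3) to -4.74 (Aebp1) on the lower side.

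Several short sequences were more frequent in the promoters of the genes that rose at least 2-fold than in all promoters. Those shown here were mostly picked for holding 1 of them, TTGCNNAA, which was not the most frequent. Windows of 250 bases before to 50 bases after the start of each gene were taken from RefSeq (GRCm38.p6), and 7088 of the 13004 genes had exactly 1 window. The letters TTGCNNAA on either strand, a core recognised by C/EBP factors, which drive granule genes, were in 44 of 211 windows (20.9%) of genes at least 2-fold higher, in 13 of 197 windows (6.6%) of genes at least 2-fold lower, and in 8.44% of all 7088. Over all genes called higher the share was smaller, 126 of 1068 windows (11.8%), and over all genes called lower it was 79 of 981 (8.05%). Of the 10 lowest genes, 7 had 1 window and 0 held it. Of the 10 highest, 9 had 1 window and 6 of those held it (S100a9, Lyz1, Retnlg, Stfa1, Ngp and Ltf). The following are 4 of those windows, then that of the elastase gene Elane, which holds GAGGAAGT, a core recognised by Spi1 (PU.1), and that of Igll1, which holds neither. Each is written 5′ to 3′ on the strand of its gene, and capitals mark the matches.
S100a9 (chr3:90695672-90695971, minus strand): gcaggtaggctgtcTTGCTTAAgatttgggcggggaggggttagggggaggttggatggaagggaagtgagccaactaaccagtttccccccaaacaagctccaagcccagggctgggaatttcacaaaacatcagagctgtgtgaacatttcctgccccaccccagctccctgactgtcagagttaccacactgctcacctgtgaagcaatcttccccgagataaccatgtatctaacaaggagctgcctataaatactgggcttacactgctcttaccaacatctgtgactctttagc
Ltf (chr9:111019042-111019341, plus strand): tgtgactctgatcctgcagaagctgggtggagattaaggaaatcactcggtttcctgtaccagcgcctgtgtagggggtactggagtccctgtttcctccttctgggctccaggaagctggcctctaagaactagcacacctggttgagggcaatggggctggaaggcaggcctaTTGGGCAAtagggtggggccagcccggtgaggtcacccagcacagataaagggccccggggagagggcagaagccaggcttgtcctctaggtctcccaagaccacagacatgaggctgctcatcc
Ngp (chr9:110419558-110419857, plus strand): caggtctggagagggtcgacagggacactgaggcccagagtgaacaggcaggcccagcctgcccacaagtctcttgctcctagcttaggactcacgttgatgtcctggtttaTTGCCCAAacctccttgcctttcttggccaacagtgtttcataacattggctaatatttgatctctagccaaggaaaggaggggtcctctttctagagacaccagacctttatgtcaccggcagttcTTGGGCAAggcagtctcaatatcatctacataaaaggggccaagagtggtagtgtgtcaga
Retnlg (chr16:48872358-48872657, plus strand): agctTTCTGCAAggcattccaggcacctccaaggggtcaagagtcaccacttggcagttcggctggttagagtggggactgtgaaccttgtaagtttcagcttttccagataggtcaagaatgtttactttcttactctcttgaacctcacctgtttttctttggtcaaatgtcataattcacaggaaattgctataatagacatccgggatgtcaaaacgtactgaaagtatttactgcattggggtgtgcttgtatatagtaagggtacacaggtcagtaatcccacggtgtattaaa
Elane (chr10:79886062-79886361, plus strand): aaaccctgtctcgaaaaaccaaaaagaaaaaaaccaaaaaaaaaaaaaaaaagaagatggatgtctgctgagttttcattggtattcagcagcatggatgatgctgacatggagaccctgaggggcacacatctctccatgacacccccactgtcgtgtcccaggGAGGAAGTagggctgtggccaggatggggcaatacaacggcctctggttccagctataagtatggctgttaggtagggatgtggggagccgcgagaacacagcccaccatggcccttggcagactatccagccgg
Igll1 (chr16:16863936-16864235, minus strand): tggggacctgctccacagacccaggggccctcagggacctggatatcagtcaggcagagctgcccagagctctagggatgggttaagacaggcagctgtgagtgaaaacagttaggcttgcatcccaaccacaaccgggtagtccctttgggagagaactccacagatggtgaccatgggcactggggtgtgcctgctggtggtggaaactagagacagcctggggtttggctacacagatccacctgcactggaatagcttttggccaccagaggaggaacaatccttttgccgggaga

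GAGGAAGT was in 11.8% of the windows of genes at least 2-fold higher, in 2.54% of those at least 2-fold lower and in 3.68% of all windows. GAAANNGAA, found in interferon response elements, was in 22.3, 6.09 and 7.73% in the same order, and TATAAA, the TATA box, in 17.5, 8.63 and 6.57%. The E2F sequences of cell cycle promoters, TTTGGCGC or TTTCCCGC, were in 0.948, 2.03 and 3.47%, the Myc E-box CACGTG in 8.53, 5.58 and 10.6%, and the cell cycle element TTTGAA in 14.7, 10.7 and 12.3%. In the windows of all genes called higher, the shares were 5.9% for GAGGAAGT, 10.3% for GAAANNGAA and 8.05% for TATAAA. In those of all genes called lower they were 2.45, 7.03 and 7.03%. All sequences were searched on both strands. A match of GAAANNGAA overlapped one of TTTGAA in 13 windows, one of the E2F sequences in 4 and one of TTGCNNAA in 1. A match is a run of letters and not a shown site.

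The fused gene and its partners were read next. Hoxa9, on chromosome 6 at 52223100 to 52231089 (GRCm38), had 73.4 and 102 RPKM in the 72 h libraries, against 66.4 and 75.8 RPKM in the 40 h libraries, so the groups overlapped (log2 change 0.28, SE 0.16, limma, adjusted p = 0.217). It was called without 72 h replicate 1, at 0.52 with an adjusted p of 0.0404. Esr1, the estrogen receptor gene, had 8.74 and 11.9 RPKM at 72 h, against 7.91 and 8.87 RPKM at 40 h, again overlapping (adjusted p = 0.226). Reads of the fusion and of the endogenous genes cannot be separated in either. Meis1 fell to 1.28 and 1.19 RPKM in the 72 h libraries, against 7.34 and 9.18 RPKM in the 40 h libraries (log2 change -2.04, SE 0.13, adjusted p = 1.62e-05). Kit, the receptor for stem cell factor, had 99.9 and 106 RPKM at 72 h, against 126 and 150 RPKM at 40 h. Its groups did not overlap and it was not called (log2 change -0.41, adjusted p = 0.187), but it was called without 120 h replicate 1 (adjusted p = 0.00717) and without 120 h replicate 2 (adjusted p = 0.00714). Lyz2, the lysozyme gene of mature myeloid cells, had 0.21 and 0.426 RPKM at 72 h, against 0.22 and 0.336 RPKM at 40 h (adjusted p = 0.876). These levels are near the floor. The name of the line holds Lys-GFP, and the part of that construct in the Lyz2 reads was not tested. Lyz2 therefore does not show the state of lysozyme genes in these cells, and Lyz1 was higher (log2 change 5.09).

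The gene lists below are described by how many of their tested members were called in each direction, beside the 13.9% higher and 13.8% lower over all genes. In bulk RNA, fewer cells of a type and less RNA per cell cannot be told apart. In the plot of the 29 lists, the secondary granule list had the largest share called higher and the lymphoid list the largest share called lower.

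**Figure D2:**
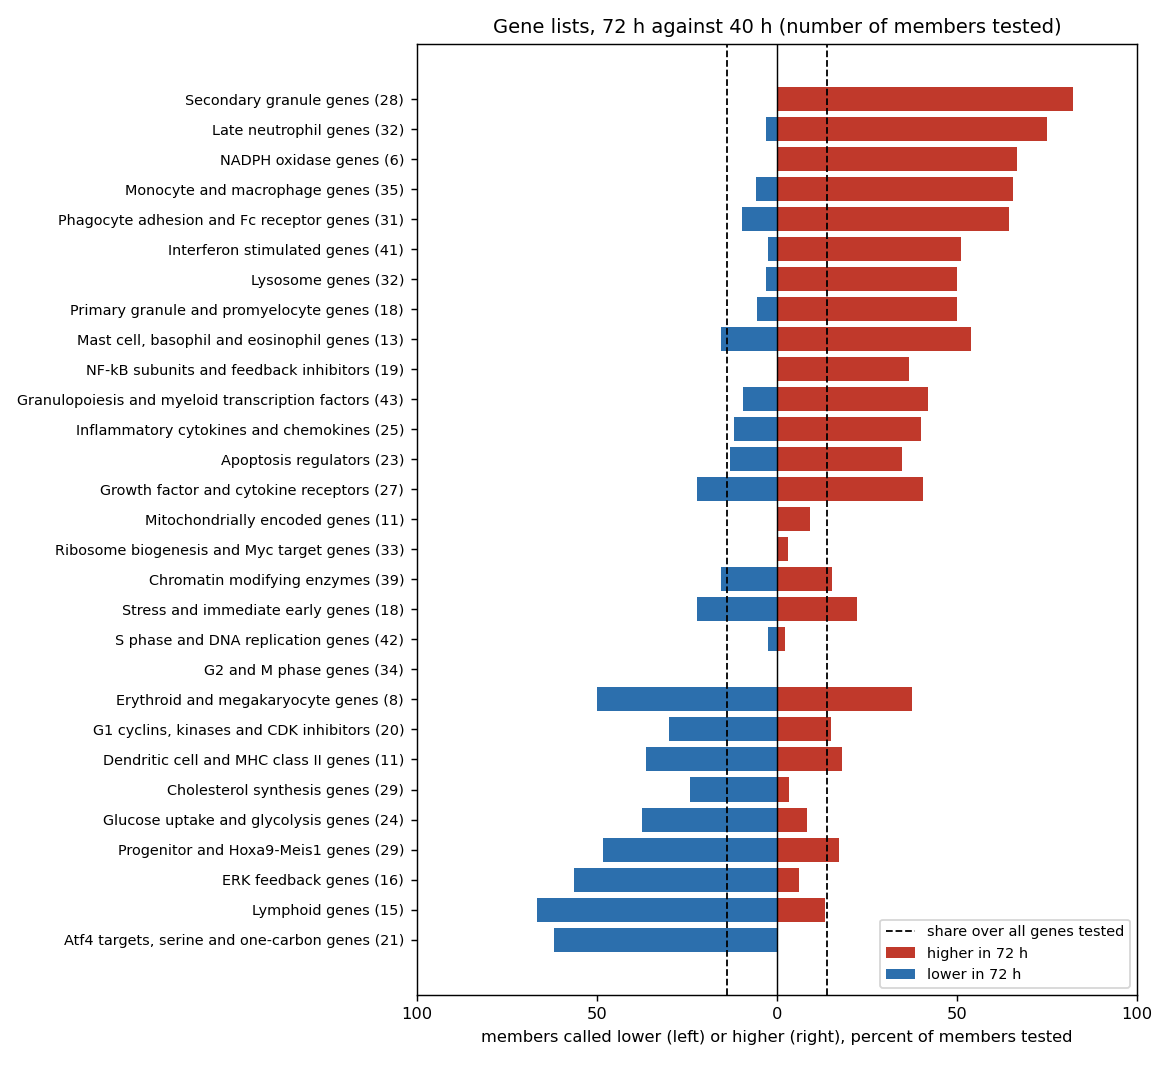
Percent of the tested members of each of 29 gene lists called lower (blue, to the left) and higher (red, to the right) in 72 h against 40 h cells at a BH adjusted p under 0.05, with dashed lines at the 13.9% higher and 13.8% lower over all genes. Granule, late neutrophil, monocyte and phagocyte lists extend to the right, and the lymphoid, Atf4, ERK feedback and progenitor lists to the left.

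Of 18 primary granule and promyelocyte genes, 9 were higher and 1 (Nkg7, -0.92) was lower, with a median log2 change of 0.84. Without either 120 h library, 14 were higher. The Nkg7 call was lost without 72 h replicate 2 (limma, adjusted p = 0.0576) or 40 h replicate 2 (adjusted p = 0.0651). The highest change was that of Ms4a3, a marker of granulocyte and monocyte precursors, which had 575 and 474 RPKM in the 72 h libraries, against 76.7 and 41.9 RPKM in the 40 h libraries (log2 change 3.18, SE 0.38, limma, adjusted p = 0.000524). Fcnb, which encodes a lectin of precursor granules, had 46.1 and 69.5 RPKM at 72 h, against 7.1 and 6.02 RPKM at 40 h (2.93, adjusted p = 7.16e-05). Elane had 262 and 295 RPKM at 72 h, against 44.6 and 37.5 RPKM at 40 h (2.73, SE 0.42, adjusted p = 0.00205). In each of these both 72 h libraries were several times above both 40 h libraries. Prtn3, the serine protease proteinase 3, had 1455 and 1330 RPKM at 72 h, against 562 and 456 RPKM at 40 h (1.46, adjusted p = 0.0145), and its call was lost without any 1 of the 4 libraries compared, with adjusted p of 0.0545 to 0.0943. The most abundant member, the myeloperoxidase gene Mpo, had 4334 and 4137 RPKM at 72 h, against 2031 and 1941 RPKM at 40 h, which did not overlap but missed the threshold (1.09, SE 0.38, adjusted p = 0.0683). It passed without 120 h replicate 1 (adjusted p = 0.000287) and without 120 h replicate 2 (adjusted p = 0.000318). The cathepsin G gene Ctsg was at 2434 and 2208 RPKM at 72 h, against 2009 and 1809 RPKM at 40 h (0.28, adjusted p = 0.577).

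Secondary granule genes were higher in 23 of 28, with a median log2 change of 1.39, and the count stayed between 21 and 23 with each library left out. Besides Chil3, Ngp and Ltf, the collagenase gene Mmp8 had 132 and 166 RPKM in the 72 h libraries, against 13.8 and 11.1 RPKM in the 40 h libraries (log2 change 3.48). Olfm4, a secondary granule glycoprotein, changed by 3.35, the haptoglobin gene Hp by 2.70, the cathelicidin gene Camp by 2.10 and Cebpe, the C/EBP factor needed for secondary granules, by 1.40. Members of this list that were not called included the lipocalin gene Lcn2, with 43.2 and 47.5 RPKM at 72 h, against 38.4 and 40 RPKM at 40 h (0.20, limma, adjusted p = 0.165). Tcn2, a carrier of vitamin B12, had 42.6 and 39.9 RPKM at 72 h, against 48.4 and 51 RPKM at 40 h (-0.26, adjusted p = 0.0891), and it was called lower without either 120 h library. Summed over all members of the list in the files, the level was 1504 and 1665 RPKM at 72 h, against 517 and 469 RPKM at 40 h, and Ptx3 was at 0.

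Late neutrophil genes were higher in 24 of 32 (19 to 26 with each library left out), with a median of 1.08. After S100a9, S100a8, Retnlg and Stfa1 came the stefins BC100530 (4.29), Stfa2l1 (3.97), Stfa2 (3.56) and Stfa3 (3.15). Mmp9, gelatinase B, had a log2 change of 2.71 and the chemokine receptor gene Cxcr2 one of 0.93. Clec4e was the 1 gene lower (-0.43), a call lost without any of the 72 h, 40 h or untreated libraries. The receptor for granulocyte colony-stimulating factor, Csf3r, had 16.5 and 22.7 RPKM at 72 h, against 12.1 and 14.4 RPKM at 40 h (0.52, limma, adjusted p = 0.151), which was called without either 120 h library, and Ly6g had a log2 difference of 0.07. The summed level was 721 and 988 RPKM at 72 h, against 201 and 198 RPKM at 40 h.

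Monocyte and macrophage genes were higher in 23 of 35 and lower in 2, with a median of 1.52, and the count higher stayed between 22 and 24 with each library left out. Csf1r, the receptor for macrophage colony-stimulating factor, had 14.2 and 20.2 RPKM in the 72 h libraries, against 2.31 and 2.13 RPKM in the 40 h libraries (log2 change 2.48, SE 0.19, limma, adjusted p = 4.63e-05). Ly6c1 had 50.1 and 56.9 RPKM at 72 h, against 3.77 and 2.05 RPKM at 40 h, and the lectin receptor gene Clec4a2 had 9.49 and 12.6 RPKM at 72 h, against 0.445 and 0.224 RPKM at 40 h. In all 3 the 72 h libraries were well above the 40 h libraries. Further members were Ms4a6d (2.96), the protease cathepsin S gene Ctss (2.95) and the lipopolysaccharide co-receptor gene Cd14 (2.88). The chemokine Ccl9 (-0.60) and the receptor Ccr2 (-0.73) were lower, and the Ccr2 call was lost without 40 h replicate 2 (limma, adjusted p = 0.0672). Mrc1, Lpl, Vcan and Mertk, genes of macrophages, were among the members that did not pass the filter on low values, with at most 0.169 RPKM in any of the 4 libraries. The sum over the list was 1487 and 1654 RPKM at 72 h, against 662 and 638 RPKM at 40 h. The 72 h cells thus carried more RNA of both the neutrophil and the monocyte lists.

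Markers of eosinophils and mast cells moved as well. Prg2, which encodes the major basic protein of eosinophil granules, had 1484 and 1306 RPKM in the 72 h libraries, against 234 and 173 RPKM in the 40 h libraries (log2 change 2.78, SE 0.45, limma, adjusted p = 0.00264). It had 471 and 250 RPKM at 120 h and 12.9 and 36.3 RPKM in untreated cells, so the 72 h libraries were the highest of the 10. Of 13 genes of the mast cell, basophil and eosinophil list, 7 were higher, among them Ear2 (2.24), the eosinophil peroxidase gene Epx (1.70) and Prg3 (1.5, a call lost without any 1 of the 72 h and 40 h libraries, adjusted p of 0.0586 to 0.125). Epx itself was low, with 2.59 and 3.54 RPKM at 72 h, against 0.26 and 0.219 RPKM at 40 h. The mast cell carboxypeptidase gene Cpa3 had 34.2 and 28.3 RPKM at 72 h, against 111 and 109 RPKM at 40 h (log2 change -1.78). Cpa3 and the basophil protease gene Mcpt8 (-1.58) were the 2 lower. Ms4a2, also of this list, was higher, with the 72 h libraries above all 8 others. Siglecf was not called (-0.21), Il5ra did not pass the filter and Fcer1a was at 0. The sum over the list was 1648 and 1457 RPKM at 72 h, against 435 and 363 RPKM at 40 h, and without Prg2 it was 164 and 151 RPKM at 72 h, against 202 and 190 RPKM at 40 h. In 8 erythroid and megakaryocyte genes, 3 were higher and 4 lower, with 1 higher without 40 h replicate 1, and 10 more genes, globins, Klf1 and Alas2 among them, did not pass the filter, at up to 0.457 RPKM. In 11 dendritic cell and MHC class II genes, 2 were higher and 4 lower, with 1 higher without any 1 of 72 h replicate 2, 40 h replicate 1 and 40 h replicate 2. Cd74, the invariant chain, had 7.86 and 19.2 RPKM at 72 h, against 1.17 and 1.36 RPKM at 40 h (2.56), and 8 more genes did not pass the filter, at up to 0.051 RPKM. The part of these cell types in the other results was not tested.

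Progenitor and Hoxa9-Meis1 genes were lower in 14 of 29 and higher in 5, with a median of -0.41. The count lower stayed between 12 and 17 with each library left out, and the count higher was 3 without 72 h replicate 2 or 40 h replicate 1. Cd34, the sialomucin of stem and progenitor cells, had 271 and 255 RPKM in the 72 h libraries, against 743 and 768 RPKM in the 40 h libraries (log2 change -1.52, SE 0.15, limma, adjusted p = 0.000165). Hlf, a transcription factor of stem cells, had 5.92 and 5.21 RPKM at 72 h, against 38 and 41.9 RPKM at 40 h (-2.64, SE 0.12, adjusted p = 3.34e-06). Flt3, a receptor kinase of early progenitors, had 27.3 and 29.5 RPKM at 72 h, against 149 and 191 RPKM at 40 h (-2.53). In none of the 3 genes did the groups overlap. Angpt1 (-2.37), a ligand of the Tie2 receptor, and the transcription factor gene Sox4 (-2.08) also fell. The proto-oncogenes Myb, with 219 and 267 RPKM at 72 h, against 214 and 249 RPKM at 40 h (0.07, adjusted p = 0.779), and Myc, with 205 and 215 RPKM at 72 h, against 186 and 200 RPKM at 40 h (0.12, adjusted p = 0.728), were not called. The 5 higher were Mef2c (1.43), Ly6a (1.30), Runx1 (0.59), Id1 (0.49) and Ikzf2 (0.46). The calls of Id1 (adjusted p of 0.123 to 0.13) and Ikzf2 (0.0503 to 0.0616) were among those lost without 72 h replicate 2 or 40 h replicate 1.

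Lymphoid genes were lower in 10 of 15 and higher in 2, with a median of -1.28, and the count lower was 10 with every library left out in turn. Rag2, part of the recombinase of lymphocyte receptors, had 1.76 and 1.56 RPKM in the 72 h libraries, against 20.4 and 23.1 RPKM in the 40 h libraries (log2 change -3.09). The B cell factor gene Ebf1 had 1.96 and 1.89 RPKM at 72 h, against 14.3 and 20 RPKM at 40 h (-2.62), and Thy1 had 0.123 and 0.104 RPKM at 72 h, against 4.55 and 6.87 RPKM at 40 h (-2.57). Each was lower in both 72 h libraries than in both 40 h libraries. The immunoglobulin gene Ighm (1.91) and the adaptor gene Blnk (0.70) were higher, and 4 genes were higher without either 120 h library. Pax5 did not pass the filter and Cd3e was at 0 in all 4 libraries.

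Among 43 transcription factors of myeloid cells, 18 were higher and 4 lower, with a median of 0.34. Leaving out 72 h replicate 2 or 40 h replicate 2 gave 11 higher, leaving out 40 h replicate 1 gave 10 higher, and leaving out either 120 h library gave 7 lower. Tfec, a factor of the Mitf family found in macrophages, had 85.3 and 81.9 RPKM in the 72 h libraries, against 17.2 and 12.2 RPKM in the 40 h libraries (log2 change 2.45, SE 0.21, limma, adjusted p = 7.88e-05). The AP-1 genes Fosl2 (1.65) and Jun (1.48) and the C/EBP gene Cebpd (1.5) were higher. Fos was called at 1.64 (adjusted p = 0.0117), with 12.1 and 23.7 RPKM at 72 h, against 4.11 and 5.51 RPKM at 40 h, but not without 72 h replicate 2 (adjusted p = 0.0761) or 40 h replicate 1 (adjusted p = 0.0881). Smaller rises were seen in Spi1 (0.75), the master factor of myeloid cells, in Irf8 (0.70), which favours monocytes, and in Cebpb (0.35). The Cebpb call was lost without 72 h replicate 1 or either 40 h library (adjusted p of 0.0756 to 0.0988). Gfi1, a repressor that favours neutrophils, had 75.5 and 94.8 RPKM at 72 h, against 58 and 67 RPKM at 40 h and was not called (0.43, adjusted p = 0.115). It was called without either 120 h library (adjusted p of 0.0144 and 0.0145), in a fit of the 72 h and 40 h libraries alone (0.0456) and with array weights (0.0214). Cebpa, needed for granulocyte precursors, had 39.5 and 37.8 RPKM at 72 h, against 48.1 and 46.2 RPKM at 40 h (-0.28, adjusted p = 0.142), and it was called without either 120 h library.

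Of 27 growth factor and cytokine receptors, 11 were higher and 6 lower, with 3 lower without 40 h replicate 2. The interleukin 6 receptor gene Il6ra had 14.1 and 16.3 RPKM in the 72 h libraries, against 3.8 and 3.96 RPKM in the 40 h libraries (log2 change 1.73). Csf2rb2, the beta chain of the interleukin 3 receptor, was higher by 1.37, and Csf2ra, the alpha chain of the GM-CSF receptor, by 1.34. Among the genes lower were Flt3, Il10rb, Tgfbr2, Il3ra and Ifnar2. The Tgfbr2 call was lost without 40 h replicate 2 (limma, adjusted p = 0.0591), that of Il3ra without 72 h replicate 1 or either 40 h library (0.0554 to 0.0898), and that of Ifnar2 without any 1 of the 72 h, 40 h and untreated libraries (0.078 to 0.231).

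Most listed effector genes of phagocytes were higher. Phagocyte adhesion and Fc receptor genes were higher in 20 of 31 and lower in 3, with a median of 0.73. Itgam, the integrin chain CD11b, had 21.4 and 35.1 RPKM in the 72 h libraries, against 2.73 and 2.91 RPKM in the 40 h libraries (log2 change 2.90), and the lectin gene Clec12a had 86.2 and 93.3 RPKM at 72 h, against 14.9 and 11.9 RPKM at 40 h (2.66). Of 6 NADPH oxidase genes, 4 were higher. The catalytic subunit gene Cybb had 5.4 and 9.45 RPKM at 72 h, against 0.093 and 0.105 RPKM at 40 h (2.90), whereas its partner Cyba changed by 0.43 and the cytosolic subunit Ncf1 by 0.52. The Ncf1 call was lost under quantile normalization (limma, adjusted p = 0.0586), and that of Cyba without 72 h replicate 1, either 40 h library or untreated replicate 1 (adjusted p of 0.05005 to 0.152). Tyrobp, the adaptor of several of these receptors, was at 218 and 214 RPKM at 72 h, against 209 and 211 RPKM at 40 h.

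Lysosome genes were higher in 16 of 32 and lower in 1 (Gm2a, -1.04, with 2 lower without either 120 h library), with 9 higher without 72 h replicate 1 and 10 higher without either 40 h library. Grn, progranulin, had 153 and 152 RPKM in the 72 h libraries, against 72.3 and 72.2 RPKM in the 40 h libraries (log2 change 1.07). Interferon stimulated genes were higher in 21 of 41 and lower in 1 (Ifitm3, -1.07), and leaving out 72 h replicate 2 gave 11 higher, leaving out 40 h replicate 1 gave 9, and leaving out 40 h replicate 2 gave 13. Oasl2 had 2 and 5.01 RPKM at 72 h, against 0.108 and 0.185 RPKM at 40 h (1.89). Summed over the tested members, the interferon list overlapped, with 179 and 248 RPKM at 72 h, against 223 and 216 RPKM at 40 h. Cytokines and chemokines were higher in 10 of 25 and lower in 3. Their summed level was lower, with 1040 and 1070 RPKM at 72 h, against 1430 and 1340 RPKM at 40 h. Ccl3, which draws in monocytes, had 36.6 and 47.7 RPKM at 72 h, against 6.25 and 6.73 RPKM at 40 h (2.52), while Il6 had 0.394 and 0.701 RPKM at 72 h, against 3.54 and 5.35 RPKM at 40 h (-1.80). NF-kB subunits and inhibitors were higher in 7 of 19, and leaving out 72 h replicate 2 gave 3 higher, leaving out 40 h replicate 1 gave 2, and leaving out 40 h replicate 2 gave 4. Tnip1, an inhibitor of the pathway, had 21 and 22.2 RPKM at 72 h, against 11.2 and 10.8 RPKM at 40 h (0.91).

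Few cell cycle genes were called. Of 42 genes of S phase and DNA replication, 1 was higher (Rfc1, 0.32) and 1 lower (Gins2, -0.28) in limma, with a median log2 difference of -0.07. Both calls were lost without 72 h replicate 2, 40 h replicate 1 or either untreated library, with adjusted p of 0.0547 to 0.182, and that of Gins2 also without 72 h replicate 1 or 40 h replicate 2. Of 34 genes of G2 and M phase, 0 were called in limma, 1 had an unadjusted p under 0.05 (higher), and limma voom on reads recovered from the RPKM called 0. Without 72 h replicate 1, 1 was higher. The topoisomerase gene Top2a had 138 and 142 RPKM in the 72 h libraries, against 132 and 146 RPKM in the 40 h libraries. Without either 120 h library, whose spread the other tests share, 13 S phase genes and 8 G2 and M phase genes were lower. In the 120 h cells against untreated cells, 41 of 42 and 34 of 34 were lower, on RPKM as deposited and beside 52.7% over all genes. For ribosome biogenesis and Myc target genes, 1 of 33 was higher (Utp20, 0.62, with an adjusted p of 0.0602 without 40 h replicate 1), and without either 120 h library 10 were higher and 3 lower. All 33 were lower in 120 h cells than in untreated cells.

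The share of G1 regulators called higher was near the 13.9% over all genes, and the count called lower rested on single libraries. Of 20 cyclins, kinases and inhibitors, 3 were higher and 6 lower, with 3 lower without any 1 of the 4 libraries compared. Cdkn1a, the inhibitor p21, fell to 6.78 and 7.76 RPKM in the 72 h libraries, against 18.7 and 18.6 RPKM in the 40 h libraries (log2 change -1.25, limma, adjusted p = 4.23e-05). Cdkn2a had 66 and 69 RPKM at 72 h, against 104 and 103 RPKM at 40 h (-0.61), and the antiproliferative gene Btg1 had 28 and 29.1 RPKM at 72 h, against 11.5 and 11 RPKM at 40 h (1.27). Among 39 chromatin modifying enzymes 6 were higher and 6 lower. The count higher was 0 without 72 h replicate 2 or 40 h replicate 1, 1 without 40 h replicate 2, 2 without either untreated library and 11 without either 120 h library, and the count lower was 3 without 40 h replicate 2 and 12 without either 120 h library. The Polycomb gene Cbx2 had 2.19 and 1.85 RPKM at 72 h, against 8.32 and 9.59 RPKM at 40 h (-1.72).

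Listed genes of amino acid stress and of growth signalling fell more often than they rose. Targets of Atf4, the factor of the integrated stress response, with serine and one-carbon genes, were lower in 13 of 21, with 8 without 40 h replicate 2 and a median of -0.59. Trib3, a pseudokinase induced by Atf4, had 5.6 and 4.93 RPKM in the 72 h libraries, against 27 and 37.3 RPKM in the 40 h libraries (log2 change -2.39, SE 0.15, limma, adjusted p = 1.5e-05). Ddit3, the factor CHOP, had 52 and 46.8 RPKM at 72 h, against 116 and 125 RPKM at 40 h (-1.27). The serine synthesis gene Psat1 had 182 and 146 RPKM at 72 h, against 401 and 421 RPKM at 40 h (-1.32, adjusted p = 0.0106), a call lost without 72 h replicate 2 (0.0752), 40 h replicate 1 (0.0584) or 40 h replicate 2 (0.0654). Feedback genes of the ERK pathway, which growth factor receptors switch on, were lower in 9 of 16 (6 to 9 with each library left out). Spry4, an inhibitor of the pathway, had 0.436 and 0.531 RPKM at 72 h, against 6.49 and 7.22 RPKM at 40 h (-2.40). The ETS factor genes Etv4 (-2.21) and Etv5 (-1.58) and the phosphatase gene Dusp4 (-1.48) were lower too, and the phosphatase gene Dusp7 (0.40) was higher.

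Glucose uptake and glycolysis genes were lower in 9 of 24 and higher in 2, with 5 lower without 72 h replicate 1, 72 h replicate 2 or 40 h replicate 2 and 3 lower without 40 h replicate 1. The count higher was 0 without 40 h replicate 2, 1 without 72 h replicate 2, 40 h replicate 1 or either untreated library, and 5 without either 120 h library. Pgk1 had 586 and 656 RPKM in the 72 h libraries, against 1050 and 1020 RPKM in the 40 h libraries (log2 change -0.74), a call lost without 72 h replicate 1 or either 40 h library (limma, adjusted p of 0.0627 to 0.0781). Cholesterol synthesis genes were lower in 7 of 29, with 3 without 72 h replicate 1 or 40 h replicate 2, 2 without 72 h replicate 2 or 40 h replicate 1, 4 without either untreated library and 14 without either 120 h library. Hmgcs1, an early enzyme of that pathway, had 64 and 67.7 RPKM at 72 h, against 100 and 106 RPKM at 40 h (-0.64). Of 23 apoptosis regulators 8 were higher, with 5 without any 1 of the 72 h libraries, the untreated libraries and 40 h replicate 2, and 3 were lower, with 5 without either 120 h library. The BH3-only gene Pmaip1 was higher (1.08) and the BH3-only gene Bbc3 lower (-0.68). Stress and immediate early genes were higher in 4 of 18 and lower in 4, with 2 lower without 72 h replicate 1, either 40 h library or either untreated library. Of 11 mitochondrially encoded genes 1 was higher (mt-Nd4l, 0.59), with 0 without any 1 of the 72 h, 40 h and untreated libraries and 5 without either 120 h library. Under quantile normalization 6 were higher, with a median of 0.62, against 0.34 with RPKM as deposited, and with voom 3 were higher.

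The largest differences in RPKM were not those in fold. On the higher side, among called genes that met the conditions for naming, they were Prg2, Prtn3, Ms4a3, Chil3, Ly6c2 and Plac8, the last with 1780 and 1424 RPKM in the 72 h libraries, against 1019 and 790 RPKM in the 40 h libraries (log2 change 0.83, limma, adjusted p = 0.0336). The Plac8 call was lost without any 1 of the 72 h, 40 h and untreated libraries, with adjusted p of 0.0634 to 0.192. On the lower side, the ferritin heavy chain gene Fth1 had 483 and 438 RPKM at 72 h, against 1052 and 1035 RPKM at 40 h (-1.18, SE 0.15, adjusted p = 0.000647). It had 1443 and 1440 RPKM in untreated cells and 1494 and 1577 RPKM at 120 h, so the 72 h libraries were the lowest of the 10. B2m, the light chain of MHC class I, had 501 and 484 RPKM at 72 h, against 1058 and 1075 RPKM at 40 h (-1.11, adjusted p = 0.00106). Both genes were lower in both 72 h libraries. The ribosomal protein gene Rps27 (-0.90, adjusted p = 0.00918) was also called, but not without 72 h replicate 2 (0.0749) or 40 h replicate 1 (0.0719). The enolase gene Eno1 (-0.68, adjusted p = 0.0243) was not called without any 1 of the 72 h, 40 h and untreated libraries (0.0553 to 0.13). The ribosomal protein gene Rpl17 (-0.67, adjusted p = 0.0393) likewise rested on single libraries, with adjusted p of up to 0.204.

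The comparison of 120 h with untreated cells has no library in common with that of 72 h with 40 h, although the estimate of the spread is shared. It is given on RPKM as deposited. Median-of-ratios factors, the median ratio of a library's genes to their mean over the libraries, were 0.792 and 0.777 in the 120 h libraries. They were 1.06 and 1.07 in the untreated libraries, so the typical gene read lower at 120 h, and the part of this in the counts was not tested. Of the 1810 genes higher in 72 h cells, 1344 (74.3%) were also higher at 120 h, 189 (10.4%) were lower and 277 (15.3%) were not called. Those 1344 were 37.5% of the 3582 genes (27.5% of those tested) higher at 120 h. Of the 1796 genes lower in 72 h cells, 1478 (82.3%) were also lower at 120 h, 165 (9.19%) were higher and 153 (8.52%) were not called. Those 1478 were 21.6% of the 6858 genes (52.7%) lower at 120 h. Leaving out mitochondrially encoded genes, the top 10 coding genes held 11.4 and 10.9% of RPKM at 120 h. In untreated cells the top 10 held 7.27 and 7.26%. Among genes changed at least 2-fold, 338 of 353 (95.8%) were higher in both and 334 of 378 (88.4%) lower in both, and 3 and 23 were called the opposite way. Over all 13004 genes, the 2 log2 differences had a Pearson r of 0.711, a description across genes, which are not independent replicates.

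**Figure D3:**
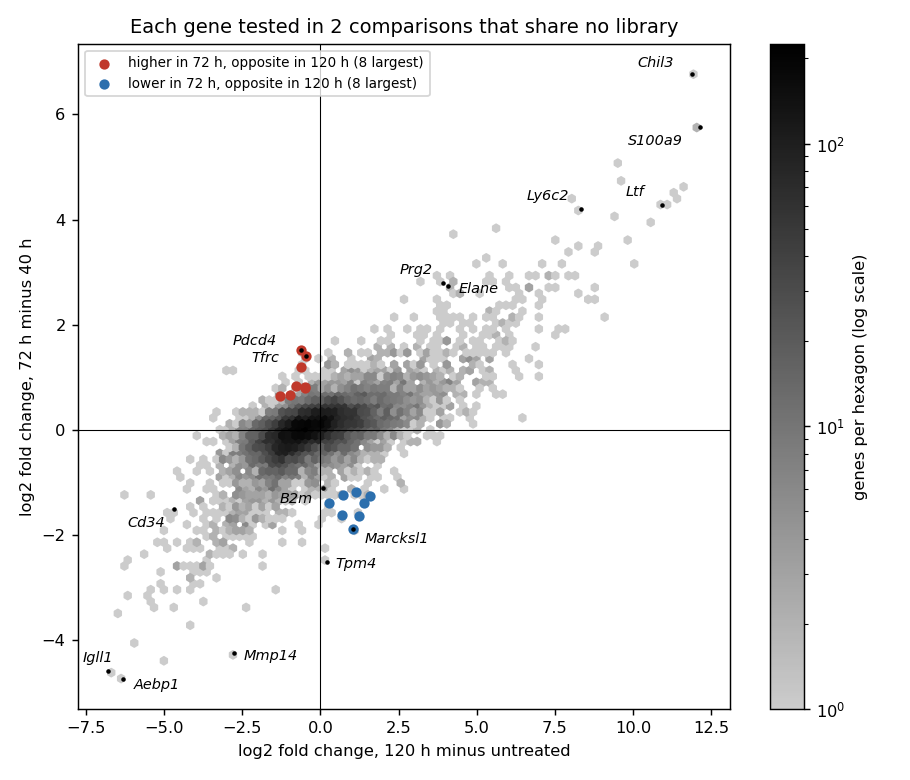
Log2 difference of 72 h minus 40 h cells (y axis) against that of 120 h minus untreated cells (x axis), as a density of the 13004 genes in grey, with the 8 genes per direction that differed most from 40 h while called the opposite way at 120 h in red (higher at 72 h) and blue (lower at 72 h). Most of the spread runs from lower left to upper right (Pearson r 0.711), and the coloured genes lie in the other 2 corners.

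Genes called the opposite way were led by Pdcd4, an inhibitor of translation, which had 145 and 155 RPKM in the 72 h libraries, against 54.2 and 50.2 RPKM in the 40 h libraries (log2 change 1.51, SE 0.08, limma, adjusted p = 6.8e-06), and changed by -0.62 at 120 h. Tfrc, the transferrin receptor through which cells take up iron, had 147 and 150 RPKM at 72 h, against 58.6 and 53 RPKM at 40 h (1.40, SE 0.17, adjusted p = 0.000608), and changed by -0.46 at 120 h. Both were higher in both 72 h libraries. Their falls at 120 h are on RPKM as deposited, and the part of the lower 120 h scaling factors in them was not tested. Gria3 (1.19), Snord16a (0.84), the autophagy gene Atg12 (0.82) and the G protein subunit gene Gng12 (0.78) followed. Ern1 (0.66) and Gstm1 (0.64) completed the 8 with an adjusted p of 0.0471 each, and the Gstm1 call was lost without any 1 of the 72 h, 40 h and untreated libraries (0.0764 to 0.216). The Ern1 call was lost without any of these except 40 h replicate 2 (0.0523 to 0.282). On the lower side, Marcksl1 had 9.77 and 9.71 RPKM at 72 h, against 39.4 and 38.2 RPKM at 40 h (-1.89, SE 0.07, adjusted p = 1.67e-06), and 82.6 and 84.8 RPKM at 120 h. The glucose transporter gene Slc2a3 had 2.82 and 3.53 RPKM at 72 h, against 12.4 and 11.6 RPKM at 40 h (-1.64, SE 0.13, adjusted p = 7.14e-05), and changed by 1.23 at 120 h. The kinase gene Map4k4 (-1.63), the cholesterol exporter gene Abcg1 (-1.40), the actin-binding gelsolin gene Gsn (-1.39), the tetraspanin gene Cd9 (-1.26), the peptide loading gene H2-DMa (-1.24) and Ndufa4l2 (-1.19) followed. The Ndufa4l2 call was lost without 72 h replicate 1 (0.0732) or 40 h replicate 2 (0.0974).

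The 72 h libraries were above all 8 others, and called against both 40 h and 120 h cells, in 547 genes (4.21% of those tested), and below all 8 others likewise in 473 genes (3.64%). The 547 were 30.2% of the genes higher than at 40 h and the 473 were 26.3% of those lower. Against 120 h cells alone, 51.0% of all genes were higher and 26.4% lower in 72 h cells. The scaling factors were 1.055 and 1.078 at 72 h, against 0.792 and 0.777 at 120 h. The part of this difference in these counts, which use RPKM as deposited, was not tested. Elane, Prtn3, Ms4a3, Plac8, Srgn and Prss57, 6 of the 18 primary granule genes, were among the 547, and 0 of the 28 secondary granule genes and 0 of the 32 late neutrophil genes were. Elane was at 94 and 32.2 RPKM at 120 h and at 1.68 and 3.19 RPKM in untreated cells, both below its 262 and 295 RPKM at 72 h. Tfec was at 34.1 and 21.7 RPKM at 120 h, and Ms4a3 at 279 and 122 RPKM. Far2, an enzyme that makes fatty alcohols, had 51.9 and 50.4 RPKM at 72 h, against 7.71 and 5.42 RPKM at 40 h (2.80). Among the 473 below all others, Mmp14 had 0.529 and 0.507 RPKM at 72 h, against 26.7 and 29 RPKM at 40 h, 3.68 and 8.06 RPKM at 120 h and 42.8 and 43.1 RPKM in untreated cells. The tropomyosin gene Tpm4 had 3.43 and 6.49 RPKM at 72 h, against 30.1 and 34.4 RPKM at 40 h (-2.53, SE 0.24, limma, adjusted p = 0.000165), and 54 and 77.5 RPKM at 120 h. Rbpms (-3.05), Rab37 (-2.20), Col4a5 (-1.91), Plxnb2 (-1.76) and Tbc1d10c (-1.68) followed. The Atf4 list held 4 such genes (Chac1, Sesn2, Nupr1 and Ddit4) and the G1 list 4 (Ccnd3, Cdkn1a, Cdkn2d and Tob1), of which Nupr1, Ccnd3 and Tob1 lost the call against 40 h cells with single libraries left out (adjusted p of up to 0.104, 0.139 and 0.135). So did Srgn without 40 h replicate 2 (adjusted p = 0.0546). Of windows with 1 promoter, 9.06% of the 342 of genes above all others held TTGCNNAA and 2.05% held GAGGAAGT.

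**Figure D4:**
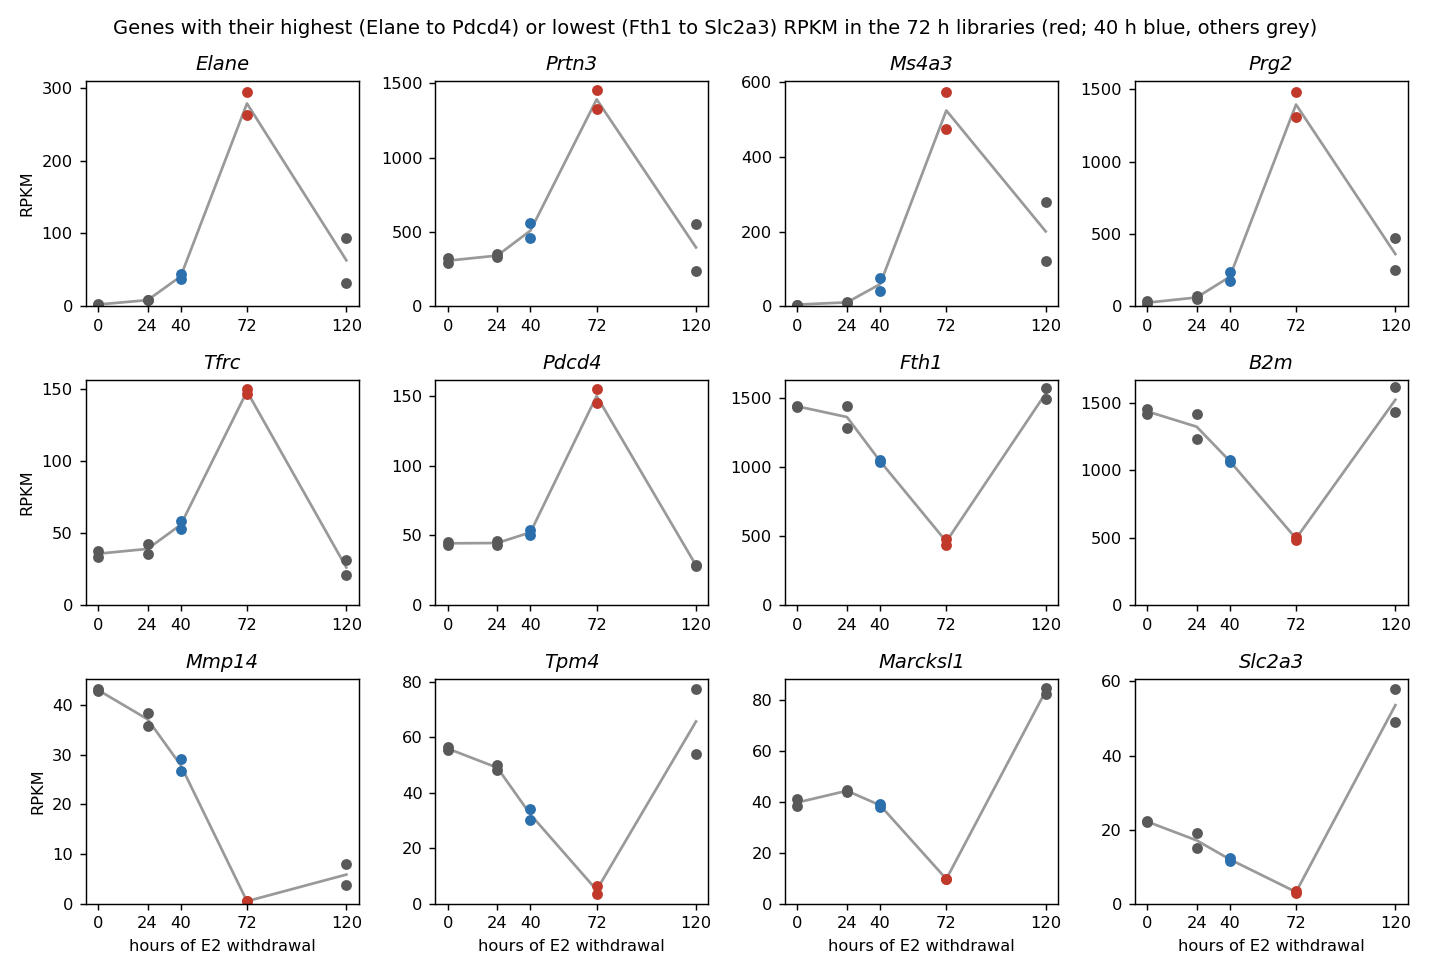
RPKM of 12 genes against hours without E2 (0 for untreated, then 24, 40, 72 and 120 h), with 1 point per library, 72 h in red, 40 h in blue and others in grey, and a line joining group means. Elane, Prg2 and Pdcd4 are among the genes highest at 72 h, and Fth1, Marcksl1 and Slc2a3 among those lowest there.

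Each library was then placed between the untreated mean, at 0%, and the 120 h mean, at 100%, on the log2 scale, for list members called at least 2-fold in 120 h against untreated cells. These positions also use RPKM as deposited. The median over 10 primary granule genes was 58.1 and 61.7% in the 72 h libraries, against 23.8 and 22.1% in the 40 h libraries. Secondary granule genes (27) were at 27.9 and 37.0% at 72 h, against 2.04 and 1.95% at 40 h, and late neutrophil genes (31) at 27.6 and 35.4% at 72 h, against 0.867 and 0.942% at 40 h. Monocyte genes (32) were at 31.3 and 41.5% at 72 h, against 1.9 and 1.39% at 40 h. At 72 h, 2 of the 10 primary granule genes were under 0% and 2 over 100%. Among the 27 secondary granule genes, 0 were outside that range. Of the 18 primary granule genes tested, 6 were called higher and 5 lower at 120 h, so their median position joins both directions. Whether these lists move along a common path was not tested. Progenitor genes (24) were at 41.5 and 43.2% at 72 h, against 9.91 and 3.95% at 40 h, and lymphoid genes (14) at 74.2 and 83.1% at 72 h, against 17.9 and 15% at 40 h. S phase genes (31) were at 0.147 and 4.72% at 72 h, against -0.943 and -3.17% at 40 h. Ribosome biogenesis genes (31) were on the far side of the untreated cells, at -17.1 and -19.8% at 72 h, against -13.5 and -11.1% at 40 h. Over all 1867 genes (14.4% of those tested) at least 2-fold higher at 120 h, the medians were 16.3 and 24.0% at 72 h, against -0.726 and 0.448% at 40 h, and over the 3288 (25.3%) at least 2-fold lower they were 17.4 and 22.9% at 72 h, against 0.686 and 3.07% at 40 h.

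**Figure D5:**
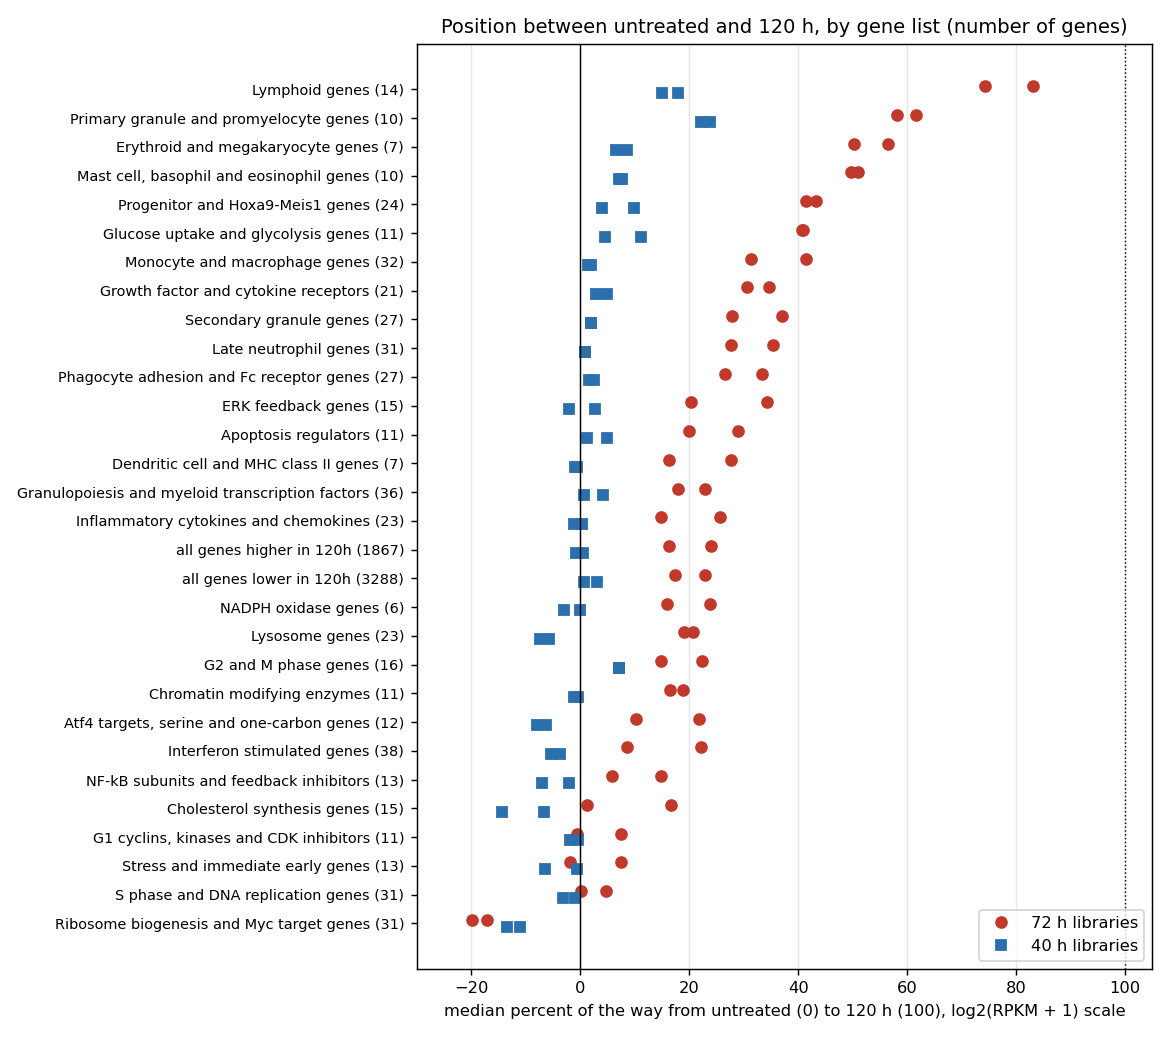
Median position of list members on the way from untreated (0%) to 120 h cells (100%) on the log2 scale, with 1 point per library, 72 h in red and 40 h in blue. The 72 h medians of the lymphoid (74.2 and 83.1%) and primary granule lists (58.1 and 61.7%) are the highest, and those of S phase genes (0.147 and 4.72%) are near 0.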

How the data were processed

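RNA-seq was analysed from 10 libraries in 5 groups of 2. The authors deposited RPKM for each Ensembl transcript (per the file headers), and the submitters' processing notes name the aligner STAR and the build GRCm38. The program that counted reads, the annotation release and the use of strand are not stated there. Per the labels' protocols, RNA came from an RNeasy kit and libraries from a TruSeq kit. The add-back times are those of the sample annotation.

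Of the transcript identifiers, 77720 of 79535 (97.7%) matched GENCODE M21 (GRCm38), and 2.64 to 3.24% of summed RPKM was on the rest. Each gene was represented by 1 principal coding transcript (26227 genes, 17251 of them coding). Fold changes are on the log2(RPKM + 1) scale, which understates changes of low genes. The 13004 genes past the filter were fitted in R 4.3.3 with limma 3.58.1 (eBayes with a trend on the mean level), with group as the only term over all 10 libraries (5 residual and 3.04 prior degrees of freedom), and 2-sided p-values were BH adjusted over all genes. RPKM steps gave whole reads for 95.69 to 96.45% of the 4035 to 4645 values examined per library, within at most 0.05 reads, and 173620000 to 204390000 reads per library, and 1 read then stands for 0.00245 to 0.00288 RPKM in a transcript of 2 kb. Those reads served limma voom as an alternative, which called 1928 genes higher and 1782 lower. Of these steps, only the limma fit of 72 h against 40 h was tested on simulated data. Python 3.11.15 with pandas 2.3.3 was used for counts and figures.

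The comparison and its 29 gene lists were chosen with earlier results of these data known, and lists are described by counts and medians with no test. The text names Hoxa9, Meis1, Esr1, Lyz2 and Kit, and otherwise called genes of mean RPKM of at least 5 whose groups do not overlap, leaving out predicted and clone names: the 10 highest and 10 lowest log2 changes, the 6 largest RPKM differences each way, up to 8 each way called oppositely in 120 h against untreated cells, and up to 8 each way at 72 h beyond all other libraries. For each list the 4 called members that changed most and the 2 most abundant uncalled members could be named. Other members were named to complete a list's account, after their values were seen. Some genes that the rule named are left out.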

Additional observations from a re-analysis of the deposited data

How the results depend on the processing

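The counts over all genes kept within 1.5 times under the other pseudocount, filters, scalings, weights and transcript choice, with these exceptions. Without the 120 h group 3010 genes were higher and 3073 lower, and with each library left out in turn the counts ran from 881 to 3011 higher and from 1025 to 3072 lower. The low ends came without 40 h replicate 1 (higher) and 40 h replicate 2 (lower), the high ends without 120 h replicate 2. Genes changed at least 2-fold numbered 622 higher and 656 lower with a pseudocount of 0.1, and 642 and 673 with voom, since a pseudocount of 1 shrinks changes of low genes. Of 3739 values of the 197 named genes under the alternatives, 3511 changed neither the call nor the sign of a called gene, 112 (25 genes) lost the call and 115 (27 genes) gained it. Among genes not called, 14 changed sign under at least 1 alternative. Hspa8, which was not called, reversed to 0.27 under quantile normalization, against -0.03, and the cause was not tested. List counts stayed within 1.5 times in 906 of 1102 cases. The median of the G1 list changed sign under quantile normalization, at -0.00648 against 0.00588, and that of the stress list at 0.0671 against -0.00455. Leaving out the 24 h libraries was not run.

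With the replicate number as a block, 2324 genes were higher and 2115 lower. Csf3r (adjusted p = 0.0227), Notch1 (0.0373), Laptm5 (0.0299) and mt-Cytb (0.0366) were then called, 3 mitochondrially encoded genes and 2 of the ribosome biogenesis list were higher, 2 S phase and 2 lysosome genes were lower, and 20 small nucleolar RNA genes were higher. Deviations of same-numbered libraries had a correlation of 0.364 between the 72 h and 40 h groups, and ran from 0.129 to 0.639 in 7 other pairs of groups. It was 0.0341 between 72 h and untreated and 0.0876 between 40 h and untreated, so not every pair was over 0.1. The labels do not say that the numbers mark shared cultures.

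At 0.00245 to 0.00288 RPKM for 1 read on a transcript of 2 kb, depth limits mainly genes near 0. The 2 libraries per group, the shared spread with the less alike 120 h pair, and bulk RNA limit what the counts can show. An adjusted p that misses the threshold does not show that the levels are alike.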

Other observations

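Genes of classical MHC class I and its peptide loading were chosen after their values were seen. Of the 10, 9 were lower, beside 13.8% over all genes, with a median log2 change of -1.12. The choice sets much of that count, and non-classical class I genes were not taken in. H2-K1 had 173 and 178 RPKM in the 72 h libraries, against 432 and 441 RPKM in the 40 h libraries (log2 change -1.31), and H2-D1 had 201 and 197 RPKM at 72 h, against 425 and 439 RPKM at 40 h (-1.11). The immunoproteasome gene Psmb9 had 20 and 18.7 RPKM at 72 h, against 69.4 and 73.1 RPKM at 40 h (-1.83). The peptide transporter gene Tap1 had 22.5 and 21.6 RPKM at 72 h, against 64.5 and 72 RPKM at 40 h (-1.59). In each of these 4 genes both 72 h libraries lay below both 40 h libraries. Nlrc5, the activator of class I genes, changed by -1.26, a call lost without 72 h replicate 1 or either 40 h library (limma, adjusted p of 0.0526 to 0.0962), and Tapbp was not called (-0.01). With each of the 72 h and 40 h libraries left out, 8 or 9 of the 10 were lower, whereas 21 of 41 interferon stimulated genes were higher, a count that was 11 without 72 h replicate 2. Leaving out 40 h replicate 1 gave 9 of these, and leaving out 40 h replicate 2 gave 13.

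Of 10 iron handling genes, also chosen after their values were seen, 3 were higher and 4 lower, beside 13.9 and 13.8% over all genes. Beside Tfrc, the ferritin receptor of autophagy Ncoa4 had 83.7 and 81.2 RPKM in the 72 h libraries, against 48.9 and 52.1 RPKM in the 40 h libraries (log2 change 0.70), and the iron importer gene Slc11a2 was higher. Fth1, Slc11a1 (-1.01), Steap3 (-0.59) and the iron-responsive aconitase gene Aco1 (-0.36) were lower. Without 72 h replicate 2, 40 h replicate 1 or 40 h replicate 2, 2 were lower, and the calls of Steap3 and Aco1 were those lost (limma, adjusted p of 0.0522 to 0.115).

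Ribosomal protein genes were lower in 12 of 81, near the 13.8% lower over all genes. Their median log2 difference was -0.50 (-0.23 under quantile normalization). Leaving out any 1 of the 72 h, 40 h and untreated libraries gave 0 to 2 lower, and leaving out either 120 h library gave 77 lower. Many small nucleolar RNA genes were low, and with a filter of 5 RPKM in 2 or more libraries 1 of the 22 tested was higher. With the main filter, 10 of 136 were higher, a smaller share than the 13.9% over all genes. Leaving out 72 h replicate 1 gave 57 higher, leaving out 72 h replicate 2 or 40 h replicate 2 gave 2, and leaving out 40 h replicate 1 gave 3. Either 120 h library left out gave 20, and voom on recovered reads gave 2.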
